A study of Homo sapiens with 12 samples.

Results

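Replication-dependent histone genes encode the core histones H2A, H2B, H3 and H4 and the linker histone H1 that package newly copied DNA. They were taken here as the protein-coding genes of GENCODE 44 whose symbols follow the clustered histone naming (H1-1 to H1-6 and the series H2AC, H2BC, H3C and H4C). The rule found 69 genes, of which 65 were matched by Ensembl ID among the 60675 gene IDs of the count tables: 6 of 6 H1 genes, 15 of 17 H2A, 18 of 18 H2B, 11 of 13 H3 and 15 of 15 H4. H2AC18, H2AC19, H3C2 and H3C3 were not analysed here. The rule used names only, and no measured value.

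The libraries came from A375, a human melanoma cell line with an activated BRAF gene, and from A375/211, its derivative that overexpresses the microRNA gene MIR211. The latter is named the overexpressing line in the text and MIR211 line in the plots. How MIR211 was introduced, and whether that line is 1 clone or a pool, is not given in the sources used here. Total RNA was sequenced from both lines without labelling or other treatment, as 2 RNA-seq libraries per line with the labels a and b. For BRIC-seq, cells of both lines received 5-bromouridine (BrU) for 24 h, the label was then chased for 0, 1, 3 or 6 h, and BrU-containing RNA was captured with an antibody and sequenced, with 1 library per line and time. Labelled RNA here is therefore RNA that took up BrU, was captured and was sequenced, and a low level does not tell these steps apart. The chase follows the level of labelled RNA over the hours after labelling. The total RNA libraries held 20847481 to 34130525 counts and the labelled RNA libraries 2671651 to 7279038. MIR211 itself had 0 counts in all 6 libraries of A375 and between 2 and 36 counts in each library of the overexpressing line. Of 12 melanoma markers, all had counts in total RNA, and 8 had enough counts there for a test between the lines. By contrast, 3 of 5 markers each of keratinocytes, leukocytes and endothelium had a count of 0 in all 4 total RNA libraries. Fibroblast markers had a summed level of 25.6 to 62.0 CPM (counts scaled to library size) in total RNA.

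Histone mRNAs are unusual among animal messengers. They lack introns and a poly(A) tail, and end instead a few bases after a short RNA hairpin that the stem-loop binding protein SLBP holds. They are made in S phase through the coactivator NPAT, and are destroyed within minutes to hours once DNA synthesis stops, after short uridine tails have been added. Replication-independent histones such as H3.3 and H2A.Z come from ordinary spliced and polyadenylated mRNAs, and serve throughout the cell cycle.

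The hairpin was found in the 150 bases after the stop codon of the canonical GENCODE 44 transcript (hg38) of 69 of 69 histone genes by the rule. The search on the transcript's strand used a 16-base histone stem-loop consensus and required that 6 stem positions pair across a 4-base loop. The same search matched 3 of 19850 other protein-coding genes (0.0151%), namely H2AX, H3-4 and H3-7, which are histone genes outside the rule. The match began 23 to 68 bases after the stop codon, with a median of 36. Only 10 distinct sequences occurred, and the 4 commonest are shown because they define the class and differ by family, and those of H3C6 and H2AC20, each found in 1 gene, because values of these genes are described. Capitals mark the loop.
H1-3, H2AC6, H2BC18, H3C14 and 36 other genes: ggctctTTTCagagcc
H4C5, H4C8 and 8 other H4 genes: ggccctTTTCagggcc
H2AC21, H2BC5, H3C8 and 6 other genes: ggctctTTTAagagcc
H4C14, H4C15, H4C12 and H4C9: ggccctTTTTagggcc
H3C6: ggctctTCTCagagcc
H2AC20: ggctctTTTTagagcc
The sequences of H4C5 and of H4C14 occurred in H4 genes only. H4C14 and H4C15, to which several results return, carry the latter. In H4C14 the hairpin lies at chr1:149833032-149833047 (plus strand, hg38), and in H4C15 at chr1:149860769-149860784 (minus strand), each within the 3′ UTR of the canonical transcript.

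The genes lie in 3 groups and 1 single locus. On chromosome 6, 55 of the 69 span 25723397 to 27893891 (2.17 Mb), on chromosome 1, 11 lie between 149782689 and 149887965 and 2 (H2AC25 and H2BC26) between 228434777 and 228463104, and H4C16 lies alone on chromosome 12. Their promoters were compared in the RefSeq table (GRCh38.p14, 250 bases before to 50 after the start, both strands), which held 64 of the 69. TATAAA was found in 65.6% of them and in 11.8% of 27241 other promoters. CCAAT was found in all 51 promoters of H1, H2A, H2B and H3 genes but in 3 of 13 of H4 genes, against 35.6% of other promoters. The octamer ATTTGCAT was found in 14 of 18 H2B and 11 of 16 H2A promoters, in 1 of 11 H3 and in 0 of the H1 and H4 promoters, against 1.71% of others. The canonical transcripts were short, with a median of 487 bases against 2891 for other protein-coding genes, and poor in T (U in the RNA, the base that BrU replaces), with a median of 18.3% against 24.7%.

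Some members cannot be told apart by sequence. H4C14 and H4C15 have identical canonical transcripts and lie on opposite strands of chromosome 1, H3C14 and H3C15 share at least 99.2% of their 50-base windows, and H4C11 and H4C12 at least 92.1%. For 32 of the 69 genes all 50-base windows were unique, and for 16 fewer than 50% were. H3C12 and H2AC17 overlap on the same strand. The treatment of reads that map to several places is not given in the sources used here, so single values of these genes are uncertain, and sums over copies are given where a result turns on them.

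In total RNA, histone mRNA was abundant in both lines, and every family contributed a similar share. The 65 genes took 0.708% of all counts in library a and 1.31% in library b of A375, and 0.926% and 1.23% in libraries a and b of the overexpressing line. Their summed level was 10069 ± 4201 CPM in A375 and 10761 ± 2050 CPM in the overexpressing line (SD, n = 2 per line). H3 had the lowest family mean in A375 (1721 CPM) and H2B the highest (2192 CPM). In the overexpressing line these were again H3 (1924 CPM) and H2B (2324 CPM). The order of the families differed by less than the spread between libraries.

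H1-2, a somatic linker histone, was the most counted member in all 4 total RNA libraries, at 540 and 749 CPM in A375 and 723 and 799 CPM in the overexpressing line. By the mean of the 4 libraries H1-4 came next, with 531 and 714 CPM in A375 and 636 and 727 CPM in the overexpressing line, and then H1-3 with 335, 625, 511 and 634 CPM in the same order of libraries, although H4C15 was above H1-3 in library b of A375 (639 CPM). Per kilobase of canonical transcript, which allows a comparison between genes, H4C15 was highest (1247 CPM per kb, mean of the 4 libraries), ahead of H1-2 (962), H1-4 (829), H3C15 (796) and H3C14 (795). H4C15 shares its canonical transcript with H4C14, so its place at the top is uncertain. The near-identical genes H3C14 and H3C15 had nearly equal counts in every library, for example 5478 and 5442 in library a of A375. H2AC20 (631 CPM per kb), H2AC13 (547), H2BC5 (513) and H2BC8 (462) led the H2A and H2B families on that scale. H2BC21, the H2B gene with the highest level per gene (297 CPM, mean of the 4), came to only 134 CPM per kb because its canonical transcript is 2224 bases long. That transcript runs more than 100 bases past the hairpin. The level per kilobase of an mRNA ending at the hairpin was not computed, so the place of H2BC21 among H2B genes on that scale is uncertain.

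At the other end, 6 members had at most 13 counts in every total RNA library. They were H1-6, H2AC1 and H2BC1, which are known as testis histones, and H3C11, H4C7 and H4C13. H2AC1 had a count of 0 in all 12 libraries. By the mean CPM of the 4 libraries H3C6 was the lowest of the other 59, with 81 and 273 counts in A375 and 239 and 348 in the overexpressing line, where H2AC6 was lower still (105 and 76 counts).

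**Figure D1:**
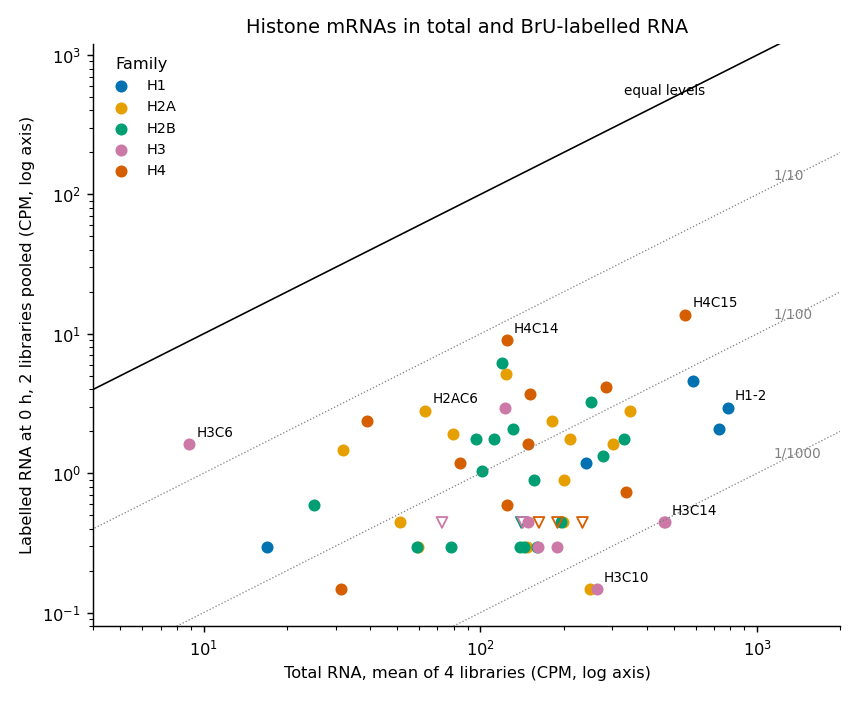
Level of each histone gene in total RNA (x axis, mean of 4 libraries, CPM, log axis) and in labelled RNA at 0 h (y axis, 2 libraries pooled, CPM, log axis), scaled together and coloured by family; open triangles are genes with a labelled count of 0, drawn at the floor of 3 counts, which lies above genes with 1 or 2 counts. The solid line marks equal levels and the dotted lines 1/10, 1/100 and 1/1000. The 59 genes tested are plotted. Each of them lies below the line of equal levels, most of them between 1/10 and 1/1000, with H3C6, H4C14 and H4C16 nearest to it and H3C10 and H3C14 among the farthest.

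In labelled RNA the same genes were almost missing. At 0 h of chase the 65 genes together had 463 counts in A375 and 214 in the overexpressing line. At their share of total RNA, libraries of that depth would have held 26899 and 29997 counts. The share of all counts fell accordingly, to 0.0173% in A375 and 0.00769% in the overexpressing line at 0 h. Over the 4 times it lay between 0.00592% and 0.0195% in A375 and between 0.00378% and 0.00769% in the overexpressing line. Scaled together, the summed level at 0 h was 80.5-fold lower than in total RNA in A375 and 194-fold lower in the overexpressing line. The deficit was smallest for H4 (47.5-fold in A375 and 104-fold in the overexpressing line) and largest for H3 (206-fold and 529-fold). It was 155-fold and 310-fold for H1, 65.1-fold and 209-fold for H2A, and 80.3-fold and 172-fold for H2B. At 0 h H4 had the highest summed labelled level of the families in both lines (43.6 and 20.5 CPM) and H3 the lowest.

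Detection followed. A count of 10 or more was reached by 59 or 60 of the 65 genes in each total RNA library. In labelled RNA of A375 it was reached by 16, 22, 28 and 16 genes at 0, 1, 3 and 6 h, and in the overexpressing line by 6, 8, 12 and 6 genes. From their share of total RNA, 59 and 58 genes would have reached it at 0 h in A375 and the overexpressing line. The later libraries were deeper, which moves such counts. At least 1 count was seen for 51 to 58 genes in A375 and for 39 to 45 in the overexpressing line. H2AC1, H2BC1, H3C11, H4C7 and H4C13 had a count of 0 in all 8 labelled RNA libraries, and all 5 were also near 0 in total RNA. Of the 12 genes with 0 counts in both 0 h libraries, 6 were well expressed in total RNA: H4C11, H4C12, H4C4, H3C7, H2BC3 and H3C1.

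Gene by gene, labelled RNA at 0 h (1 library per line) was tested against total RNA (2 per line) with the line as a covariate. All 59 genes that passed the filter on low counts were lower in labelled RNA, and 58 of them passed the test (edgeR quasi-likelihood test, adjusted p under 0.05), against 34.6% of the 21863 genes tested that were called lower and 63.4% called in either direction. The genes passed the filter through total RNA, so that those that could be tested were those high there, and the other 6 are the ones near 0 in total RNA. The median difference of the 59 was -7.36 on the log2 scale (164-fold lower) with genes at 0 set at their bound, and the median of all genes tested was -0.24. The fitted median of the 59, -7.38, became -8.32 without the 0 h library of A375 and -6.60 without that of the overexpressing line, each over the 60 members that then passed the filter. With glycolytic mRNAs held constant it was -4.73 over the 59, and the median of all genes 2.32. H1-4, for example, had 14 labelled counts at 0 h over both lines, a level 351-fold below its total RNA (95% interval 209 to 643-fold, counting error only). Labelled and total RNA also differ in the pull-down, the labelling and the depth, which cannot be told apart from the kind of RNA.

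The H3 family had the lowest median. H3C14 and H3C15 had 3 labelled counts each at 0 h, with the same counts in every labelled library, and were 1044-fold (interval 357 to 5064) and 1038-fold lower. H3C10 had 1 count (interval 320 to 70350-fold lower) and H3C4 had 2 counts (178 to 5308-fold). Outside this family H2AC8, with 1 count, lay as low (304 to 66792-fold). H3C7 and H3C1, with 0 counts, were at least 321-fold and at least 164-fold lower, by the floor of 3 counts over both libraries. Among H4 genes, H4C11 and H4C12 were at least 527-fold and at least 428-fold lower, and H4C4 at least 367-fold. H4C3 had 5 counts and was 453-fold lower by pooled counts. The edgeR fit, a separate estimate over libraries, gave it a log2 difference of -8.58 (SE 0.34, adjusted p = 9.06e-05). With genes at their bound, the family medians were -7.43 for H1, -6.69 for H2A, -7.31 for H2B, -8.58 for H3 and -6.28 for H4 on the log2 scale.

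The members least depleted were H3C6, H4C14, H4C16, H2BC18 and H2AC16. By pooled counts H3C6 was 5.47-fold lower (11 labelled counts at 0 h), H4C14 13.8-fold (interval 10.8 to 18.1, 61 counts), H4C16 16.5-fold, H2BC18 19.3-fold and H2AC16 21.6-fold. The fitted log2 difference of H3C6 was -2.20 (SE 0.59, adjusted p = 0.0190). H2AC6 was the one tested gene that did not pass (log2 -4.28, SE 2.02, adjusted p = 0.110). Its labelled counts were 19 in A375 and 0 in the overexpressing line, and its total RNA counts were 99 and 6109 in libraries a and b of A375 and 105 and 76 in the overexpressing line, so that 1 library of total RNA stands far above the others.

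Of the least depleted members named above, H3C6, H4C14, H4C16 and H2BC18 have something in common in the annotation, but H2AC16 does not share it. Besides the short histone transcript, GENCODE 44 lists transcripts of H3C6, H4C14, H4C16 and H2BC18 that run more than 100 bases past the hairpin. H2AC6, which did not pass the test, has such transcripts too. Such transcripts were listed for 16 of the 59 tested genes, whose median difference was -5.18 (36.2-fold lower), while it was -7.44 (174-fold lower, with genes at their bound) for the 43 without. Among these 16 were also H3C10, with 1 count, and H2BC11 (log2 -8.61) and H2BC4 (log2 -8.54). Among the 43 were H2AC21 (log2 -4.38, 35 counts) and H2AC16 (log2 -4.20, 10 counts). Over the 59 genes, which share libraries, the rank correlation of the difference with the number of such transcripts was 0.47 (Spearman), with T content 0.02 and with transcript length -0.01. Which transcripts the labelled reads came from cannot be read from counts per gene.

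Shortness and T content went with the same difference in other genes. Other protein-coding genes had a median difference of -0.52 on the log2 scale (13768 genes), those with a transcript of up to 800 bases -3.38 (445 genes), and those that were both short and at most 20% T -5.10 (138 genes). Longer genes with at most 20% T had a median of -3.07, and longer genes with more T -0.18. Cytosolic ribosomal protein genes, which are also short and highly expressed, had a median of -3.79, and 78 small nuclear RNA genes, which are short and not polyadenylated, had -7.54. How much of the histone deficit goes with transcript size or base composition was not tested.

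**Figure D2:**
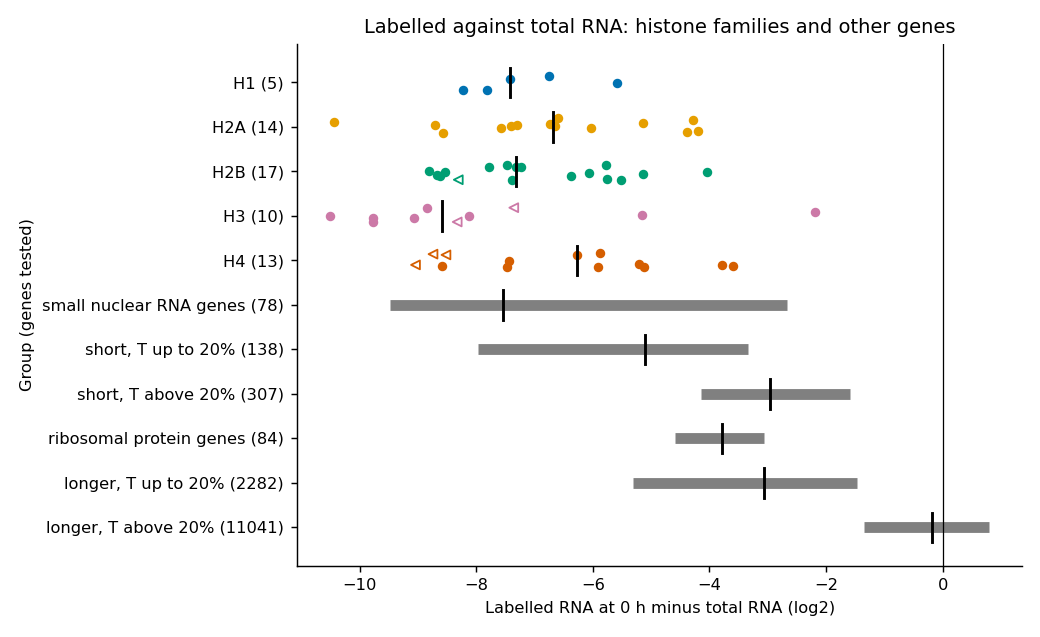
Labelled RNA at 0 h minus total RNA (x axis, log2) for the tested histone genes by family (points, with open triangles at the bound for genes with a labelled count of 0 and black lines at the median) and for groups of other genes (grey bars from the lower to the upper quartile, black lines at the median). Short means a transcript of up to 800 bases, and the number of genes tested is in brackets. The histone family medians lie between -8.58 and -6.28, below the -5.10 of other short genes of low T content, and the 78 small nuclear RNA genes have a median of -7.54.

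Replication-independent histones had a smaller median deficit, though the difference between the lists was not tested. Of the 16 tested, 11 were lower in labelled RNA and 3 higher, with a median of -2.21. H2AP (log2 3.70, SE 0.52) had the highest value. H2AZ2, which encodes an H2A.Z variant, was higher (log2 0.85, SE 0.21), as was MACROH2A1 (log2 0.69, SE 0.19). H2AZ1 had -0.83 (SE 0.30, adjusted p = 0.0536) and did not pass, and H3-3A, an H3.3 gene, was lower (log2 -0.70). H3-3B, the other H3.3 gene (log2 -2.44), and H2AX, which carries the hairpin (log2 -3.78), were lower too. H1-10, a linker histone gene of this list, was lower by more than these (log2 -6.24, SE 0.43). It was not the lowest, since the fitted values of the 16 reached down to -12.15. Of 26 genes for histone mRNA processing and supply, 12 were lower and 5 higher, with a median of -0.60. SLBP had -0.88 (SE 0.27) and NPAT 0.97 (SE 0.20), whereas TUT4, a uridylyl transferase, and XRN1, an exonuclease, were higher (log2 1.72 and 1.26).

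Between the lines, no histone gene passed the test in total RNA. With 59 genes tested in RNA-seq, 0 passed (edgeR quasi-likelihood test), against 0.379% of 19258 genes called in either direction, and DESeq2 called 0 as well. Since the labels do not say that libraries came from separate cultures, p-values measure the spread between these libraries only. At an unadjusted p under 0.05 there were 2, H2AC6 (log2 -5.29, SE 1.76, adjusted p = 0.379) and H4C14 (log2 -0.95, SE 0.34, adjusted p = 0.426). The median difference, MIR211 line minus A375, was 0.10 on the log2 scale, and that of all genes -0.0035. The value for H2AC6 rests on library b of A375 alone, which held 6109 of its counts. Without that library it was -0.80. H4C14 had 148 and 145 CPM in A375 and 52.2 and 101 CPM in the overexpressing line. Its copy H4C15 had 307 and 639 CPM in A375 and 448 and 582 CPM in the overexpressing line, and the sum of both was 455 and 784 CPM in A375 and 500 and 684 CPM in the overexpressing line, which overlap.

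The larger difference in total RNA was between the libraries a and b of each line. Summed histone mRNA was 1.84-fold higher in b than in a in A375 (13039 against 7098 CPM) and 1.31-fold higher in the overexpressing line (12210 against 9311 CPM). Of the 65 genes, 62 were higher in b in A375 and 61 in the overexpressing line. The share of all genes higher in b is not given here, so these counts do not set the histone genes apart. A list of 45 S phase genes moved alike: its sum was 1998 CPM in a and 4456 CPM in b of A375, and 2706 and 4647 CPM in a and b of the overexpressing line. The shift was not particular to S phase genes. Glycolytic mRNAs summed to 10469 and 17107 CPM in a and b of A375, and to 11786 and 14946 CPM in the overexpressing line. Histone chaperones rose too (2308 and 3050, 2722 and 3185 CPM). Melanoma markers (569 and 569, 475 and 494 CPM) moved little, and keratinocyte markers were lower in b in both lines. Leaving out library a of A375 turned the median line difference of the members to -0.30, and leaving out b made it 0.62. The part of these S phase genes in the line comparison was not tested. In such bulk samples, fewer cells making an mRNA and less of it per cell cannot be told apart.

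**Figure D3:**
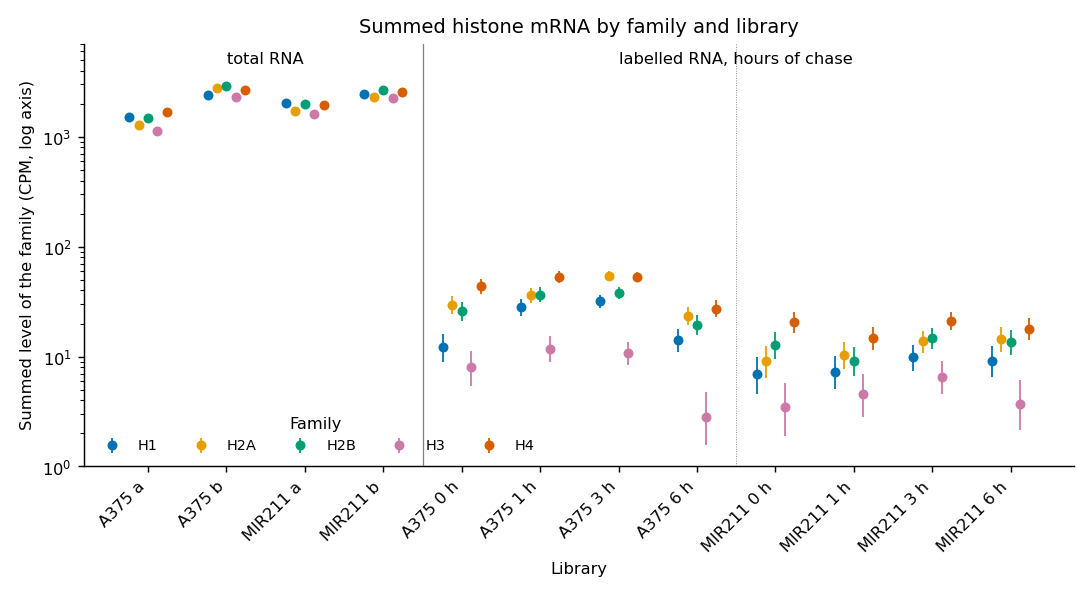
Summed level of each histone family (y axis, CPM, log axis; bars are exact 95% intervals for counting error) in the 4 total RNA libraries and the 8 labelled RNA libraries (x axis), scaled within each kind of RNA. All families lie above 1000 CPM in total RNA and below 100 CPM in labelled RNA. H3 is the lowest family in all 8 labelled libraries, and at 0, 1 and 3 h each family is higher in A375 than in the overexpressing line.

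In labelled RNA the overexpressing line held less histone mRNA than A375. The 65 genes summed to 463, 772, 1283 and 431 counts at 0, 1, 3 and 6 h in A375 and to 214, 222, 354 and 252 in the overexpressing line. Scaled, this was 119.5, 166, 188 and 87.4 CPM in A375 and 52.8, 45.8, 65.8 and 58.9 CPM in the overexpressing line. The 95% counting intervals did not overlap at any of the 4 times, for example 109 to 131 against 46.0 to 60.4 CPM at 0 h and 79.3 to 96.1 against 51.9 to 66.6 CPM at 6 h. A375 was thus 2.26, 3.61, 2.86 and 1.48-fold higher at the 4 times. These intervals cover counting error only, and with 1 library per line and time they do not show how much cultures differ. All 5 families were higher in A375 at 0, 1 and 3 h. At 6 h H3 was not, with 14 counts in A375 and 16 in the overexpressing line.

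The difference was seen across the members. Of the 60 members with any labelled count, 58 had a higher level in A375 when the 4 times were pooled. The 2 others were H2BC6 (5 counts in A375 and 7 in the overexpressing line) and H3C13 (3 in each). The 58 include H1-6, H2BC3, H3C1, H3C4 and H3C7, with 1 or 2 counts in A375 and 0 in the overexpressing line. Members share libraries, and copies such as H3C14 and H3C15 can share reads, so they are not independent. The share of all genes higher in A375 by this measure is not given here. For the 43 members with over 3 pooled counts in both lines, the median ratio of A375 to the overexpressing line was 2.44, and 42 were above 1. H2BC9 had the highest of these ratios, 5.35 (76 against 13 counts), and H4C8 with 1.06, H4C16 with 1.10 and H2BC12 with 1.01 were close to equal. At 6 h fewer followed it, with 39 members higher in A375, 13 higher in the overexpressing line and 13 at 0 in both.

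Only 13 members had enough labelled counts for a test across the times. They were H1-2, H1-3, H1-4, H2AC6, H2AC20, H2AC21, H2BC8, H2BC18, H3C12, H4C5, H4C8, H4C14 and H4C15. Of these, 8 reached the filter level in all 4 A375 libraries and 4 in all 4 libraries of the overexpressing line, so that the filter favours genes high in A375, and the pooled values above cover the rest. With the times matched, 4 of the 13 were lower in the overexpressing line and 0 higher (edgeR quasi-likelihood test), against 12.3% of 13703 genes called lower. The 4 include H2AC6, which passed the filter through A375 alone, so that its call supports nothing. They also include H4C14 and H4C15, which are copies and not independent. The count of 4 is therefore not read against that share. The median of the 13 was -1.24 on the log2 scale, and that of all genes -0.05.

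H4C15 differed most steadily. It had 77, 70, 84 and 29 counts at 0, 1, 3 and 6 h in A375 and 16, 17, 17 and 6 in the overexpressing line, or 19.9, 15.01, 12.3 and 5.88 CPM against 3.95, 3.51, 3.16 and 1.40 CPM. A375 was higher at each of the 4 times. The difference was -2.13 on the log2 scale (SE 0.18, adjusted p = 0.000823), and stayed between -2.18 and -2.02 when any single library was left out. H4C14 had 44, 62, 81 and 25 counts in A375 and 17, 1, 19 and 1 in the overexpressing line (log2 -2.54, SE 0.59, adjusted p = 0.0256). The counts 1 at 1 and 6 h beside 17 and 19 at 0 and 3 h make it uneven between libraries, and the call was lost without either 3 h or either 6 h library (adjusted p from 0.0604 to 0.0737). As copies of each other, H4C14 and H4C15 together had 121, 132, 165 and 54 counts in A375 and 33, 18, 36 and 7 in the overexpressing line.

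H1-3 had 20, 80, 111 and 16 counts in A375 and 11, 14, 22 and 8 in the overexpressing line. Its level was higher in A375 at every time and differed by -1.73 (SE 0.35, adjusted p = 0.0153), a call lost without either 1 h library (-1.36 without A375, -1.35 without the overexpressing line) or either 3 h library (-1.50 and -1.58). H2AC6 was the most extreme, with 19, 32, 56 and 23 counts in A375 and 0 at all 4 times in the overexpressing line, at least 39.6-fold lower by the floor of 3 counts over the 4 libraries. It is one of the 4 called, but passed the filter through the 4 libraries of A375 alone, so that it had to differ and its call supports nothing. In total RNA of the same line it was low too, at 3.09 and 2.47 CPM, while A375 had 4.76 and 215 CPM. The gene is annotated from 26124145 to 26139116 on chromosome 6 (plus strand, hg38), with the hairpin at 26124669 to 26124684, so that most of the annotated gene lies past the hairpin.

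The other 9 tested members did not pass. H1-4 (log2 -1.49, SE 0.45, adjusted p = 0.0537), H2AC21 (-1.24, SE 0.37, adjusted p = 0.0526) and H2AC20 (-1.22, SE 0.39, adjusted p = 0.0653) came close. H2BC8 had -1.49 with a standard error of 0.51, H4C5 -0.79, H1-2 -0.76, H3C12 -0.67 and H2BC18 -0.64. H4C8 had the value nearest to 0 (log2 0.00, SE 0.32), with 10, 47, 60 and 31 counts in A375 and 15, 28, 38 and 47 in the overexpressing line. The call count was sensitive to single times: 2 members passed without the 3 h library of A375 or of the overexpressing line, and 11 without the 6 h library of either. The number of members tested also changes with the library left out. The share of all genes called in these fits is not given here, so these counts do not set the histone genes apart.

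Other short genes had medians nearer to 0. In labelled RNA, protein-coding genes of up to 800 bases had a median of -0.11 on the log2 scale (264 genes), those also at most 20% T -0.27 (49 genes), and ribosomal protein genes -0.02 (82 genes). The S phase list had a median of -0.28, with 8 of 44 genes lower and 4 higher. PCNA, the sliding clamp of replication, was among the lower ones (log2 -1.67, SE 0.17), and the primase gene PRIM1 among the higher (0.88). Among replication-independent histones 3 of 10 were lower, among them H3-3B (-1.62, SE 0.38) and H3-3A (-0.45, SE 0.08), and H2AZ2 was higher (0.46). NPAT was lower in the overexpressing line (log2 -1.07, SE 0.14, adjusted p = 0.00330), at 94.5, 120.3, 54.9 and 56.8 CPM in A375 and 44.9, 67.7, 31.2 and 19.2 CPM in the overexpressing line. SLBP did not pass (-0.28, SE 0.17, adjusted p = 0.263). Of 25 genes of that processing list 4 were lower and 2 higher, with CDK2, the kinase that activates NPAT, the highest (1.53). Markers of some other cell types also differed between the lines in labelled RNA. Fibroblast markers (0 of 5 at a count of 0 in all libraries) summed to 2.36 to 14.6 CPM for A375, against 24.4 to 142 CPM for the overexpressing line. Most of the fibroblast counts were from LUM and, in A375, COL1A2. Leukocyte markers (3 of 5 at 0, among them CD3E and PTPRC) were at 1.55 to 7.503 and 6.17 to 49.1 CPM, and endothelial markers (3 of 5 at 0: CLDN5, CDH5 and VWF) at 1.07 to 3.61 and 24.9 to 50.3 CPM. Keratinocyte markers, at 1.22 to 3.61 and 1.86 to 2.57 CPM, overlapped between the lines. In total RNA, fibroblast markers summed to 25.6 and 62.0 CPM in A375 and 26.9 and 25.9 CPM in the overexpressing line. Leukocyte markers had 2.89 and 1.37 against 1.41 and 0.911 CPM there, and endothelial markers 4.09 and 3.62 against 6.04 and 9.24 CPM. The part of these markers in the histone difference was not tested.

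**Figure D4:**
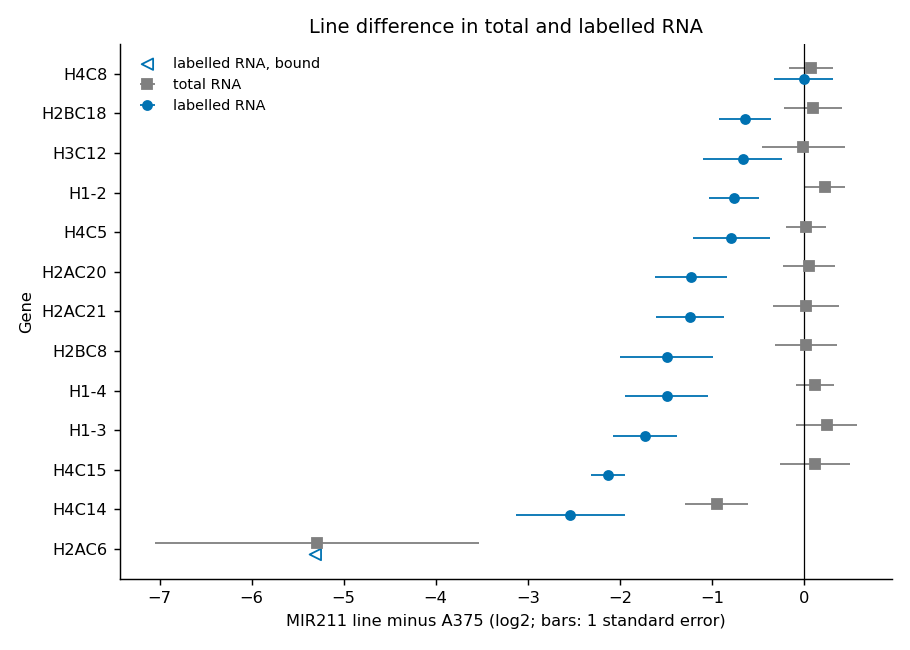
MIR211 line minus A375 (x axis, log2; bars are 1 standard error) in total RNA (grey squares, 2 libraries per line) and labelled RNA (blue circles, 4 times per line) for the 13 histone genes tested in labelled RNA; the open triangle is the bound for H2AC6, which had 0 labelled counts in the overexpressing line. In total RNA 11 of the 13 lie between -0.01 (H3C12) and 0.25 (H1-3), with H4C14 at -0.95 and H2AC6 at -5.29. In labelled RNA H4C8 lies at 0 and the others to its left, with H4C14 at -2.54 and the bound of H2AC6 farthest.

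Whether the line difference in labelled RNA exceeded that in total RNA was tested in 1 fit over all 12 libraries, a comparison added after the data were seen. Of 59 members 1 passed, H4C15, against 1.62% of 17060 genes called lower, 2.27% higher and 3.9% in either direction. Its line difference was 2.22 lower on the log2 scale in labelled than in total RNA (log2 -2.22, SE 0.43, adjusted p = 0.0297, edgeR). The call was lost without any one of the 8 labelled libraries or either total RNA library of the overexpressing line, with adjusted p from 0.0638 to 0.117 and values from -2.37 to -2.03. Without total RNA library b of A375 8 members passed, H4C15 among them (-2.84), and without library a 1 (-1.78). H1-3 had -1.99 (adjusted p = 0.0721) and H1-4 -1.62 (adjusted p = 0.0962). DESeq2 called 5 members, all lower. The shares of all genes called in these alternative fits are not given here.

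Over the chase, 3 of the 13 histone mRNAs that could be tested changed relative to the rest of labelled RNA. A slope is the change in log2 CPM per hour against the scaled total of labelled RNA, which itself shrinks, so that it ranks transcripts and is no decay rate. Of the 13 members H1-2 rose, against 29.9% of 13703 genes that did, and H4C15 and H2BC18 fell, against 34.4% (mean slope of both lines, edgeR quasi-likelihood test). The median of the 13 was -0.03 per hour and that of all genes -0.04. Without the 6 h library of A375 the median was 0.13 over 20 members, and without its 0 h library -0.09 over 16, with that of all genes at -0.04 in both.

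H1-2 rose by 0.18 per hour (SE 0.07, adjusted p = 0.0416). It had 3.36, 6.22, 8.50 and 6.49 CPM at 0, 1, 3 and 6 h in A375 and 1.73, 2.68, 4.46 and 6.08 CPM in the overexpressing line, rising at every step in the latter. With scaling by total counts its slope was 0.02, and with glycolytic mRNAs held constant it was -0.27, so its direction depends on the scaling. The call was also lost without the 0 or 3 h library of A375 or the 0, 1 or 6 h library of the overexpressing line (adjusted p from 0.0529 to 0.156). H4C15 fell by 0.28 per hour (SE 0.05, adjusted p = 0.00151), with a fall at each time in both lines. Summed with its copy H4C14, the level was 31.2, 28.3, 24.2 and 10.9 CPM in A375. In the overexpressing line the sum was 8.14, 3.71, 6.69 and 1.64 CPM, so the pair rose there between 1 and 3 h. H2BC18 fell by 0.28 per hour too (SE 0.07, adjusted p = 0.00577). It had 6.71, 6.65, 3.37 and 2.43 CPM in A375 and 3.95, 3.30, 3.72 and 1.17 CPM in the overexpressing line.

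Most other members peaked at 1 or 3 h in A375 rather than following a straight line. H2AC21 went from 6.71 CPM through 9.01 and 15.97 to 5.68, H1-3 from 5.16 through 17.2 and 16.3 to 3.24, and H4C5 from 2.84 through 7.72 and 11.9 to 3.65 CPM. Summed over the 65 genes, A375 was 2.15-fold lower at 6 h than at 3 h, and the overexpressing line 1.116-fold lower. The counting intervals at 3 and 6 h did not overlap in A375 (178 to 199 against 79.3 to 96.1 CPM) and did in the overexpressing line (59.1 to 73.0 against 51.9 to 66.6 CPM). Scaled by total counts, A375 had 188 and 59.2 CPM at 3 and 6 h. The overexpressing line then had 56.6 and 37.8 CPM, so the size of the fall depends on the scaling. The 3 h library of A375 was also the one with the most histone counts, 1283, and each time is 1 library, so a time course cannot be told apart from a library.

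**Figure D5:**
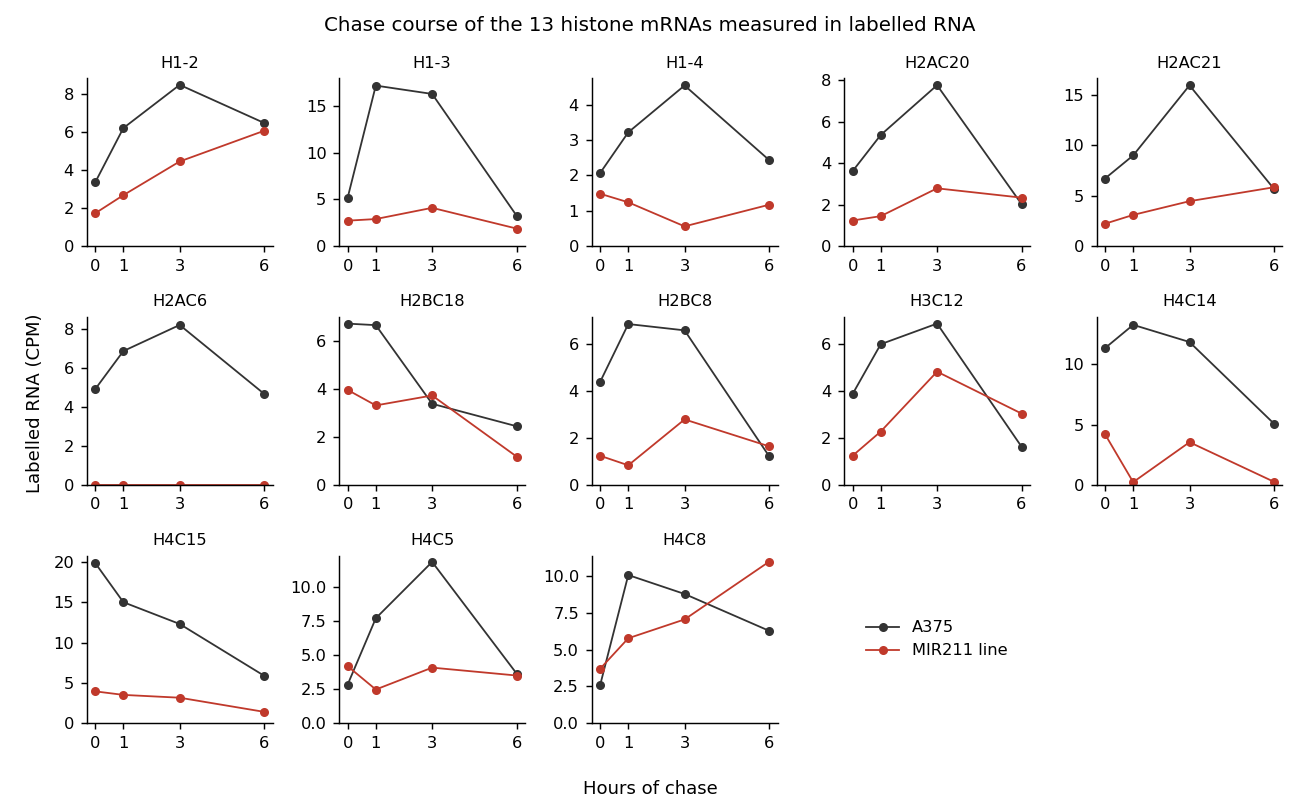
Labelled RNA (y axis, CPM, from 0, with its own scale in each panel) against hours of chase (x axis) for the 13 histone genes tested, with 1 library per point; A375 is dark and the overexpressing line red. H4C15 falls in both lines, H1-2, H4C8 and H2AC21 rise through all 4 times in the overexpressing line, most A375 courses peak at 1 or 3 h, and H2AC6 is at 0 throughout in the overexpressing line.

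By line, H4C15 (-0.31 per hour, SE 0.07, adjusted p = 0.00993) and H2BC18 (-0.30, SE 0.09, adjusted p = 0.0326) fell in A375, against 24.2% of genes, and 0 rose. Without the 6 h library of A375 neither passed (adjusted p = 0.219 and 0.199), and H4C15 also failed without the 0 h library (0.0665). H2BC18 also failed without the 0, 1 or 3 h library of A375 or the 1 h library of the overexpressing line (0.0610 to 0.126). In the overexpressing line H1-2 rose (0.28, SE 0.09, adjusted p = 0.0431), against 21.9% of genes, and 0 fell, against 21.0%. That call was lost without any 1 library of the overexpressing line or without the 1 or 3 h library of A375 (adjusted p from 0.0534 to 0.317). The difference of slopes between the lines passed for 0 of the 13, against 0% of 13703 genes by edgeR, with 0 members at an unadjusted p under 0.05 and 0 by DESeq2. The members with the smallest p were H2BC8 (0.44 per hour higher in the overexpressing line, SE 0.23) and H3C12 (0.41, SE 0.22) among the positive and H4C14 (-0.13, SE 0.33) and H1-4 (-0.07, SE 0.20) among the negative.

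Most other short mRNAs rose during the chase. Protein-coding genes of up to 800 bases had a median slope of 0.29 per hour, with 190 of 264 rising, and ribosomal protein genes 0.32, with 75 of 82 rising. Of the replication-independent histones, H2AZ1 (0.34 per hour, SE 0.03), H2AZ2 (0.25, SE 0.02) and H3-3A (0.35, SE 0.06) rose, and H2AP (-0.40, SE 0.15) fell. SLBP (-0.28, SE 0.05) and NPAT (-0.23, SE 0.05) fell as well. Of 25 genes for histone mRNA processing and supply 9 rose and 10 fell, and of 44 S phase genes 16 rose and 6 fell. The seed match of miR-211 (AAAGGGA) stood in the 150 bases after the stop codon of 2 of the 69 histone genes (2.90%) and of 1.75% of other protein-coding genes.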

How the data were processed

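The deposited tables hold whole-number read counts per Ensembl gene ID, which per the submitters' processing notes the authors made with HISAT2 2.1.0 and StringTie from RNA-seq (total RNA) and BRIC-seq (BrU-labelled RNA) libraries. These notes name hg19 and the series' design text names hg38, so coordinates and sequences were taken from GENCODE 44 (hg38) and RefSeq (GRCh38.p14) through gene IDs and symbols. How strand and multi-mapped reads were handled in counting is not given in these sources. Of 60675 gene IDs, 93.2% matched a symbol, and 1 row naming no gene (at most 0.00122% of counts) was left out.

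Counts were scaled with TMM within each kind of RNA, or jointly where both kinds were compared, filtered with filterByExpr (minimum count 10), and tested with edgeR 4.0.16 quasi-likelihood fits (R 4.3.3) with Benjamini-Hochberg adjustment over all genes tested, threshold 0.05. Labelled RNA has 1 library per line and time, so its spread is that about a straight line over the hours or between lines across matched times. Folds against genes with 0 counts use a floor of 3 counts over the group. DESeq2 1.42.0, other scalings and filters and left-out libraries were alternatives. The scripts were tested on simulated data. Intervals are exact 95% intervals for counting error only.

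The members and gene lists were chosen with earlier results of these data known. Genes described in full were, per family, the 2 with the highest mean level in each kind of RNA and, per comparison, up to 6 of each sign with the largest change among those passing, otherwise the 2 positive and 2 negative ones of smallest p; other lists gave up to 4 genes with the smallest p, and MIR211, SLBP, NPAT, H2AZ1, H3-3A, H3-3B and H1-10 were always included, except that some items are not reported here. Other members and genes named, the groups of other genes by transcript length and T content, and the sum of H4C14 and H4C15 were chosen after values were seen.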

Additional observations from a re-analysis of the deposited data

Results flagged for a closer look

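The line difference of H4C15 was 2.22 lower on the log2 scale in labelled than in total RNA (log2 -2.22, SE 0.43, edgeR adjusted p = 0.0297), by a test of the difference itself that was added after the data were seen. This was 1 of 59 members, against 1.62% of 17060 genes called lower. The canonical transcript is identical to that of H4C14, so single values are uncertain. H4C15 had 307 and 639 CPM in A375 and 448 and 582 CPM in the overexpressing line in total RNA, and was higher in A375 at 4 of 4 times in labelled RNA. Over the alternatives its adjusted p ran from 0.000264 with DESeq2 to 0.117 without library b of the overexpressing line.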

How the results depend on the processing

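With labelled RNA scaled so that glycolytic mRNAs are constant, the median of all genes moved to -0.49 per hour for slopes, -0.61 for the line difference, 2.32 for labelled against total RNA and -0.62 for the added comparison, and members called became 13 for the mean slope, 13 for A375, 5 for the overexpressing line, 12 for the line difference and 8 for the added comparison, all lower. H1-2 then reversed, to -0.27 (mean slope) and -0.18 (MIR211 line). Counts of members called under this and the other alternatives are given without the share of all genes called. They therefore do not set the histone genes apart from other genes. Scaling by total counts gave 0 rising and 3 falling members for the mean slope and 2, both falling, in the overexpressing line. DESeq2 called 1 member in A375, 0 in the overexpressing line and 5 in the added comparison. With no filter on low counts 0 passed in either line, and requiring a mean of 5 CPM left 1 each for the mean slope and for A375. Left-out libraries gave 2 to 4 members for the mean slope, 0 to 2 for A375, 0 to 2 for the overexpressing line, 2 to 11 for the line difference, 0 to 8 for the added comparison and 56 to 59 for labelled against total RNA. They reversed H3C6 in total RNA, which ranged from -0.061 (without A375 replicate 1) to 1.20, and the slope differences of H4C14, from -0.55 to 0.15 (0.14 and 0.15 without the 0 h or 6 h library of the overexpressing line), and of H1-4, from -0.58 to 0.030 (0.020 and 0.030 without the 0 h library of A375 or of the overexpressing line). The cause was not tested. Without TMM, summed levels were 173, 195 and 59.2 CPM at 0, 1 and 6 h in A375 and 76.9, 56.6 and 37.8 CPM at 0, 3 and 6 h in the overexpressing line. At 10 counts or more 16, 22, 28 and 16 members were detected in A375 and 6, 8, 12 and 6 in the overexpressing line. In labelled RNA 52 of 65 members had too few counts for a test, although at their share of total RNA 58 or 59 would have reached 10 counts in each library. Libraries a and b share a letter only, and the correlation of their deviations was 0.24 over 19258 genes with 2 pairs. With the letter as a replicate block 0 members passed in total RNA, with a median of 0.15.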
